A study of Homo sapiens with 12 samples.

Results

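RNA-seq of HK2 cells kept in high glucose (HG) was compared with that of cells kept in normal glucose (NG), with 3 libraries in each group. All genes with at least 1 TPM (a measure of transcript abundance relative to the library, scaled for length) in at least 3 of these 6 libraries were taken, which gave 13723 of the 62703 gene identifiers in the files and 6 of the 12 libraries of the series. Among them, 421 genes reached 1 TPM in every NG library and in no HG library, and 33 in every HG library and in no NG library, so that these entered through the group in which they were higher. Values of 13722 genes are described, since 1 gene was left out to give no information on sex.

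HK2 is an established line of human proximal tubular epithelial cells, and the study asked how high glucose and the growth factor FGF9 act on epithelial-mesenchymal transition in diabetic nephropathy. The NG cells received a control vector in medium with 5.5 mM glucose, and the HG cells were exposed to 50 mM glucose. All cells were grown in DMEM/F-12 with 10% fetal bovine serum. The labels name no vector for the HG cells, so that glucose and vector cannot be told apart in this comparison, and the study's text names 50 mM mannitol for NG where the labels give none. The remaining 6 libraries entered the fit to estimate the spread. They had FGF9 silenced in 5.5 mM glucose, the level of NG (si-FGF9), or FGF9 overexpressed in 50 mM glucose (HG + OE-FGF9). Exposure times were not given in the sources used here, and nothing says that libraries of a group came from separate cultures. The p-values thus measure the spread between the samples of all 4 groups.

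Proximal tubular cells take up filtered glucose, and in diabetes a high glucose load is known to raise flux through glycolysis and the polyol pathway, to stress mitochondria and the endoplasmic reticulum (ER), and to favour TGF-beta signalling and matrix production. Immediate early genes such as FOS and EGR1 encode short-lived transcription factors that are switched on within minutes by growth factors through the ERK kinase cascade and serum response factor. GC content, the share of G and C bases in a transcript, is a property that library preparation and sequencing are known to favour unevenly, and it also differs between gene classes, since housekeeping genes, zinc finger genes and cell cycle genes have characteristic base compositions.

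Depth could not be given, since the files hold TPM. Of 16 tubular epithelial markers, 4 stood below 1 TPM in all 6 libraries (ANPEP, CUBN, LRP2 and SLC34A1, which mark the differentiated proximal tubule), and the list summed to 1642 to 1762 TPM in NG and 1233 to 1881 TPM in HG. The fibroblast markers summed to 62.5 to 89.3 TPM in NG and 17.2 to 41.1 TPM in HG, with COL1A2, COL3A1, PDGFRA, PDGFRB and POSTN below 1 TPM throughout. Most of these sums was LUM alone, with 84.04, 60.2 and 55.7 TPM in NG and 31.5, 14.1 and 38.7 TPM in HG. In bulk RNA, fewer cells of a type and less RNA per cell cannot be told apart. The sums of endothelial and distal nephron markers stayed at or below 0.57 TPM. Leukocyte markers summed to 129 to 138 TPM in NG and 120.04 to 128 TPM in HG with CD3E, CD79A, ITGAM and PTPRC below 1 TPM, and podocyte markers to 26.7 to 32.5 TPM and 14.1 to 20.7 TPM with NPHS1 and WT1 below 1 TPM. Most of the leukocyte sum was CD68 alone, with 127 to 137 TPM in NG and 117 to 127 TPM in HG. FGF9 was listed at 0 TPM in all 6 libraries.

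The 3 HG libraries did not form an even group. Across the genes tested, the differences from the NG mean correlated at 0.94 between HG1 and HG2, but at 0.62 between HG1 and HG3 and at 0.64 between HG2 and HG3, where all 3 share the NG reference. The median SD of log2(TPM + 1) was 0.34 in HG and 0.14 in NG, and it was higher in HG for 81.4% of genes. HG2 was shifted most, with 12350 genes at or above 1 TPM against 13004 in HG1, 13111 in HG3 and 13795 to 13949 in NG. HG3 is therefore described on its own, and counts of a part of the gene lists are also given without it.

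A gene was called differentially expressed when its log2 fold change between HG and NG on the log2(TPM + 1) scale was at least 1 in either direction with an unadjusted p under 0.01 in limma. By these criteria 3577 genes (26.1%) differed, of which 3340 (24.3%) were lower and 237 (1.73%) higher in HG. All of these calls had a Benjamini-Hochberg adjusted p of 0.0225 or less. The median log2 fold change over all genes was -0.45, so that more than the genes called were lower in HG on this scale. Median-of-ratios scaling, which sets that median to 0.00, gave 1177 higher and 1129 lower genes, and the balance of the 2 directions thus rests on the scaling.

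The difference followed GC content. Genes were ordered by GC content and split into deciles. The lowest decile, at a median GC content of 36.7%, had a median log2 fold change of -1.24 and 64.4% of its genes called lower. In the highest decile, at a median of 63.8%, 1.12% were called lower and 7.40% higher, and the median fold change was 0.30. Across the 13368 genes with a GC value, which are not independent replicates, log2 fold change and GC content had a Spearman's rho of 0.65. All 3 HG libraries had the slope to a different degree. HG2 ran from -1.77 in the lowest decile to 0.49 in the highest, HG1 from -1.22 to 0.33 and HG3 from -0.76 to 0.14. NG libraries differed from one another along GC content too. The rho between GC content and difference from the other NG libraries was -0.47 in NG1, 0.22 in NG2 and 0.47 in NG3. Against the NG mean it was 0.60, 0.68 and 0.48 in HG1 to HG3. The median absolute differences were 0.11 to 0.19 in NG and 0.49 to 0.85 in HG. Longer transcripts were also lower, with a rho of -0.43 between length and log2 fold change.

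**Figure D1:**
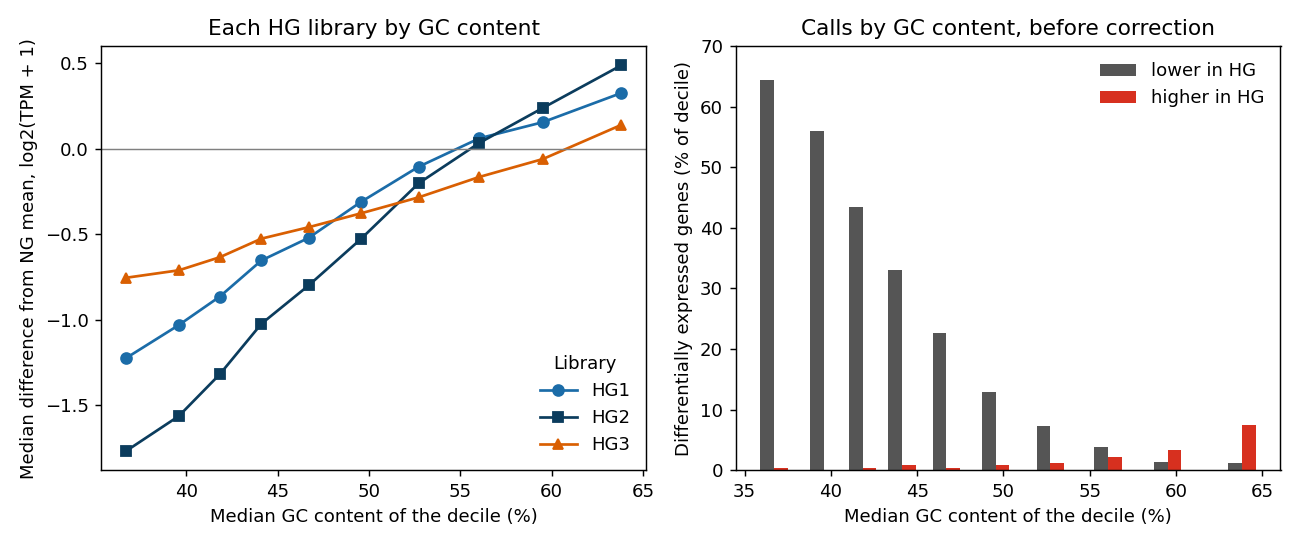
Left, median difference of each HG library from the NG mean, in log2(TPM + 1), for deciles of the tested genes ordered by GC content of the longest transcript (%). Right, percent of each decile called lower or higher in HG. All 3 lines rise with GC content, HG2 most steeply from -1.77 to 0.49 and HG3 least from -0.76 to 0.14, and the share called lower falls from 64.4% to 1.12%.

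After a smooth function of GC content had been subtracted from each library, 931 genes (6.96%) met the criteria, 532 higher (3.98%) and 399 lower (2.98%). Of the genes called lower before the correction, 371 (11.3%) were still called lower, and of those called higher, 125 (55.1%) were still called higher. No gene changed from one call to the opposite one. Without HG3, 4193 genes were lower (30.6%) and 544 higher (3.96%), and with the correction 890 lower (6.66%) and 938 higher (7.02%). Without HG2, the corrected values gave 221 lower (1.65%) and 316 higher (2.36%), and transcript length in the correction gave 339 lower (2.54%) and 398 higher (2.98%). These shares are the background for the gene lists. The groups did not overlap in a large share of genes, with every HG value under the lowest NG value in 49.3% and above the highest in 10.8%. The correction removes every difference that runs with GC content, so that a change of the cells along GC content would be removed too. Whether the slope arose in the cells or in the libraries was not tested, and group, GC slope and library cannot be told apart with these 6 libraries.

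FOS, EGR1 and FOSB had the largest decreases in HG among protein-coding genes with a mean of at least 10 TPM in 1 group and no overlap between the groups. FOS, a partner in the AP-1 transcription factor, had 276, 252 and 251 TPM in NG and 1.1, 0.53 and 6.89 TPM in HG (log2 fold change -6.47, SE 0.47, limma adjusted p = 6.87e-06). EGR1, a zinc finger transcription factor, had 130.4, 134 and 133 TPM in NG and 0.74, 0.85 and 0.25 TPM in HG (log2 fold change -6.39, SE 0.20, limma adjusted p = 2.88e-09). FOSB, a paralog of FOS, had 78.98, 52.9 and 55.8 TPM in NG and 0.5, 0.74 and 1.11 TPM in HG (log2 fold change -5.15, SE 0.22, limma adjusted p = 5.37e-08). Every HG library lay far below every NG library for the 3 genes. With GC contents of 52.6%, 55.4% and 57.7%, their corrected log2 fold changes were -6.24, -6.30 and -5.17. Without HG3 and with the correction they were -6.97, -6.17 and -5.37. The high level was that of NG alone. The 6 libraries of the other groups also held at most 7.17 TPM of FOS, 1.19 TPM of EGR1 and 4.03 TPM of FOSB. EGR1, below 1 TPM in every HG library, had entered the genes tested through NG alone.

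The promoter of EGR1 is shown because it is one of the classic serum response promoters and its gene had a low level in all 3 HG libraries. The sequence is that of the 250 bases before the transcription start in RefSeq, GRCh38.p14, chr5:138465229-138465478, plus strand, with CArG boxes, the binding motif of serum response factor, in capitals.
EGR1: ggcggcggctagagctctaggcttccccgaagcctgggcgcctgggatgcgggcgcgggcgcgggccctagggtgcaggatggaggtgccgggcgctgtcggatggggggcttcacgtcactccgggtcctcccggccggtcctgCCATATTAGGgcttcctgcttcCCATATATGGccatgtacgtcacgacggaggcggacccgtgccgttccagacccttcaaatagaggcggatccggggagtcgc
It holds 2 CArG boxes. Of 22114 promoters of this length, 1.12% hold the motif, and 0.844% of those of the genes tested. Symbols with more than 1 promoter were left out. Of the 18 immediate early genes that remained, EGR1 was the 1 that holds it in this window. FOS and FOSB held 0 there, and the search says nothing of bases further upstream. A match of letters is a description and says nothing of binding in these cells.

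Immediate early genes were called lower more often than the background. Of 35 genes on it, 31 were tested, and 19 were lower and 0 higher in HG, at a background of 24.3% and 1.73%. The median log2 fold change was -1.30, against -0.45 over all genes. The correction left 16 lower and 0 higher, with a median of -1.29 against -0.02, at a median GC content of the list of 54.96%. The corrected medians of the single libraries were -1.48 in HG1, -1.69 in HG2 and -0.61 in HG3.

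ZFP36, an RNA-binding protein that promotes decay of cytokine mRNAs, had 62.2, 70.9 and 63.9 TPM in NG and 6.33, 4.09 and 26.7 TPM in HG (log2 fold change -2.72, SE 0.51, limma adjusted p = 0.00149). ATF3, a stress-induced transcription factor, had 85.5, 64.5 and 66 TPM in NG and 13.3, 8.29 and 21.6 TPM in HG (log2 fold change -2.33, SE 0.29, limma adjusted p = 0.000348). JUNB had 178, 207 and 211 TPM in NG and 62.8, 68.2 and 75.8 TPM in HG (log2 fold change -1.51, SE 0.13, limma adjusted p = 3.77e-05), and IER2 had 71.6, 87.1 and 88 TPM in NG and 30.03, 31.6 and 36.8 TPM in HG (log2 fold change -1.30, SE 0.14, limma adjusted p = 0.000165). In JUNB and IER2 the 3 HG libraries lay close together, whereas HG3 was the highest of the group in ZFP36 and ATF3. DUSP1, a phosphatase that switches off MAP kinases, had 353, 357 and 360.1 TPM in NG and 112, 90.9 and 209 TPM in HG (log2 fold change -1.47, SE 0.34, limma adjusted p = 0.00391). CCN2, the connective tissue growth factor, went the other way among HG libraries, with 173, 145 and 146 TPM in NG and 57.6, 41.4 and 28.2 TPM in HG and the lowest value in HG3 (log2 fold change -1.90, SE 0.27, limma adjusted p = 0.000485).

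Not every member moved. JUN had 197, 210 and 219 TPM in NG and 68.8, 59.05 and 211 TPM in HG (log2 fold change -1.12, SE 0.45, limma adjusted p = 0.0521) and was not called, with HG3 within the NG range, whereas without HG3 it was lower at -1.69. FOSL1 had 126, 139 and 136 TPM in NG and 144, 164 and 180.3 TPM in HG (log2 fold change 0.27, SE 0.16, limma adjusted p = 0.171), and JUND had 59.6, 71.3 and 68.3 TPM in NG and 66.8, 89.8 and 139 TPM in HG (log2 fold change 0.50, SE 0.23, limma adjusted p = 0.0833). SRF, the serum response factor itself, had 8.13, 10.4 and 10.3 TPM in NG and 9.77, 9.78 and 7.12 TPM in HG, with a log2 fold change of -0.11. The list thus held genes with very large decreases beside genes without a call.

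Genes that feed back on ERK signalling or are induced by it gave a smaller difference. Of 19 tested, 9 were lower and 0 higher, with a median of -0.88, and 6 were lower after the correction, with a median of -0.49. DUSP6, the phosphatase for ERK, had 27.8, 23.6 and 20.8 TPM in NG and 5.39, 3.34 and 3.52 TPM in HG (log2 fold change -2.32, SE 0.29, limma adjusted p = 0.000356), and all 3 HG libraries were alike. SPRY2, an inhibitor of receptor tyrosine kinase signalling, had 40.9, 38.7 and 38.2 TPM in NG and 12.1, 6.86 and 19.7 TPM in HG (log2 fold change -1.64, SE 0.32, limma adjusted p = 0.00176). EREG, a ligand of the EGF receptor, had 101, 97.2 and 92.2 TPM in NG and 19.7, 11.02 and 28.2 TPM in HG (log2 fold change -2.34, SE 0.34, limma adjusted p = 0.000533). The 3 remaining genes called after the correction were SH2B3, DUSP5 and LIF, and in DUSP5 HG3 reached 32.5 TPM beside 36.9 to 37.9 TPM in NG.

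**Figure D2:**
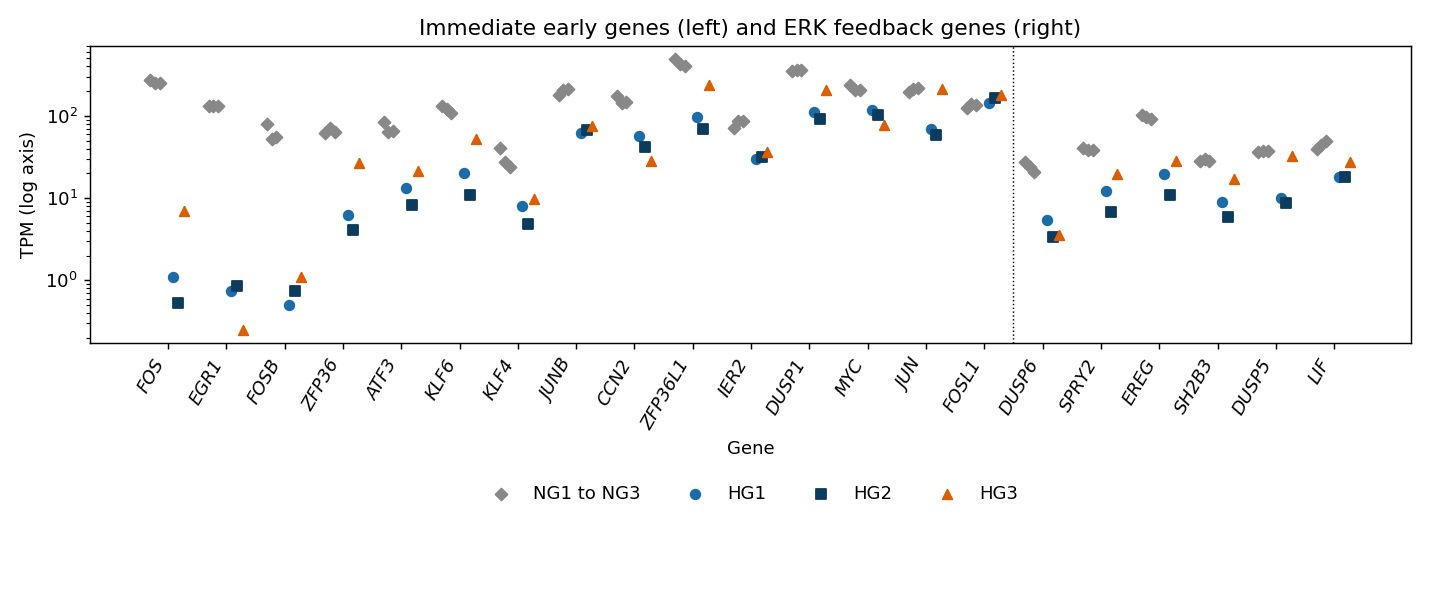
TPM (log axis) of 15 immediate early genes and 6 ERK feedback genes in each library. Grey diamonds are the NG libraries, and circles, squares and triangles are HG1, HG2 and HG3. The HG values of FOS, EGR1 and FOSB lie at 6.89 TPM or less against 52.9 TPM or more in NG, while JUN in HG3 and FOSL1 lie near the NG values.

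The other large decreases were in genes of diverse roles. CCNL1, a cyclin of pre-mRNA processing, had 214, 169.8 and 158 TPM in NG and 13.1, 7.12 and 35.5 TPM in HG (log2 fold change -3.48, SE 0.49, limma adjusted p = 0.000479). HLTF, a helicase-like factor of DNA damage tolerance, had 39.8, 37.8 and 36.2 TPM in NG and 2.89, 0.54 and 8.43 TPM in HG (log2 fold change -3.34, SE 0.53, limma adjusted p = 0.000763). IGF2BP3, an RNA-binding protein, had 16.7, 17.8 and 14.8 TPM in NG and 0.58, 0.63 and 2.72 TPM in HG (log2 fold change -3.03, SE 0.30, limma adjusted p = 0.000116). With GC contents of 35.2%, 36.6% and 40.5%, these 3 genes lost about 1 log2 unit to the correction and were called all the same, at -2.33, -2.18 and -2.002. CYP24A1, the enzyme that breaks down active vitamin D in the tubule, had 50.6, 57.8 and 58.5 TPM in NG and 6.47, 4.05 and 10.1 TPM in HG (log2 fold change -2.92, SE 0.31, limma adjusted p = 0.000177). ABCA1, the cholesterol exporter, had 40.7, 36.4 and 33.7 TPM in NG and 4.55, 2.12 and 6.26 TPM in HG (log2 fold change -2.92, SE 0.30, limma adjusted p = 0.000122). Corrected values of CYP24A1 and ABCA1 were -2.33 and -2.30, both called. At most 14.8 TPM of CCNL1, 3.65 TPM of HLTF and 1.26 TPM of IGF2BP3 stood in the si-FGF9 and HG + OE-FGF9 libraries. CYP24A1 and ABCA1 had at most 4.55 and 3.56 TPM there. FMC1-LUC7L2, with a corrected log2 fold change of -3.07, is a readthrough of 2 genes. Its reads could have been shared with them, so that its level is uncertain, and it entered through NG alone.

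The largest increases were smaller than the largest decreases, and before the correction they were fewer. LDLRAD2, a membrane protein with a low-density lipoprotein receptor domain, had 0.65, 1.18 and 0.64 TPM in NG and 7.48, 17.7 and 5.89 TPM in HG (log2 fold change 2.51, SE 0.32, limma adjusted p = 0.00038). FAM161B, a relative of a ciliary protein, had 4.83, 2.49 and 2.07 TPM in NG and 18.7, 21.2 and 10.7 TPM in HG (log2 fold change 2.12, SE 0.35, limma adjusted p = 0.000936). Both kept the call after the correction, at 2.28 and 2.44. ISG15, a ubiquitin-like interferon-induced protein, had 143, 201 and 212 TPM in NG and 519.6, 740 and 369.6 TPM in HG (log2 fold change 1.51, SE 0.22, limma adjusted p = 0.000526). BAD, a promoter of cell death of the BCL2 family, had 13.7, 19.8 and 21.4 TPM in NG and 63.02, 73.9 and 32.9 TPM in HG (log2 fold change 1.53, SE 0.28, limma adjusted p = 0.00136), and RNASEH2C, a subunit of ribonuclease H2, had 11.99, 10.4 and 13.2 TPM in NG and 39.4, 59.7 and 18.1 TPM in HG (log2 fold change 1.49, SE 0.32, limma adjusted p = 0.00277). In ISG15, BAD and RNASEH2C the HG3 value was the lowest of HG and above all NG values. LDLRAD2, FAM161B, ISG15, BAD and RNASEH2C were above all NG values in si-FGF9 too, at 42.9, 22.3, 499, 62 and 39.7 TPM or more.

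C4orf48, CAMK2N2, METRN, GNGT2 and ATP5F1D completed the 10 largest increases. In si-FGF9 they were above all NG values as well. CAMK2N2, an inhibitor of the kinase CaMKII, had 2.46, 5.81 and 5.69 TPM in NG and 15.8, 23.9 and 9.67 TPM in HG (log2 fold change 1.61, SE 0.31, limma adjusted p = 0.00162). C4orf48 had 5.12, 24.8 and 26.7 TPM in NG and 55.1, 90.2 and 43.7 TPM in HG and METRN, a secreted factor, had 7.62, 15.3 and 18.5 TPM in NG and 36.8, 46.1 and 38.9 TPM in HG, so that in both the NG1 value lay far below NG2 and NG3. GNGT2, a G protein subunit, had 6.33, 6.27 and 5.75 TPM in NG and 34.7, 35.4 and 7.19 TPM in HG (log2 fold change 1.63, SE 0.43, limma adjusted p = 0.00778), and its call rests on HG1 and HG2, since HG3 was close to NG. Among genes with the largest increases after the correction were also MMP24OS and TIMM8B, an import factor of mitochondria, at corrected log2 fold changes of 2.38 and 1.76 with adjusted p of 0.00364 and 0.00419.

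Besides FGF9, listed at 0, the study followed TGFB2, HIF1A, ITGB1, THBS1 and LOX, and these 5 genes were lower in HG. TGFB2, a ligand of the TGF-beta family, had 118, 115 and 108 TPM in NG and 23.1, 13.99 and 25.02 TPM in HG (log2 fold change -2.44, SE 0.32, limma adjusted p = 0.000426). HIF1A, the oxygen-sensitive subunit of hypoxia-inducible factor, had 517, 472 and 416 TPM in NG and 78.3, 37.2 and 216 TPM in HG (log2 fold change -2.43, SE 0.50, limma adjusted p = 0.00219). ITGB1, the beta subunit of most matrix-binding integrins, had 801, 707 and 656 TPM in NG and 177, 78.5 and 272 TPM in HG (log2 fold change -2.20, SE 0.45, limma adjusted p = 0.00218). THBS1, an activator of latent TGF-beta, had 103, 103 and 104 TPM in NG and 53.6, 30.7 and 21.7 TPM in HG (log2 fold change -1.62, SE 0.30, limma adjusted p = 0.0014). LOX, the enzyme that cross-links collagen and elastin, had 182, 169 and 157 TPM in NG and 70.7, 54.3 and 48.2 TPM in HG (log2 fold change -1.55, SE 0.16, limma adjusted p = 0.000139). The 3 HG libraries lay below the 3 NG libraries in all 5 genes, as in 49.3% of all genes.

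With GC contents of 36.4% to 45.6%, all 5 lie on the side of the GC slope where most genes were lower. Corrected log2 fold changes were -1.33 for TGFB2, -1.27 for HIF1A, -1.14 for ITGB1 and -1.01 for THBS1, all called. LOX was at -0.47 with an adjusted p of 0.139 after the correction and no longer differed by the criteria. Without HG3, the corrected value of THBS1 was -0.64 and its call was lost, while that of HIF1A was -1.69. Without HG2, the corrected values of HIF1A and ITGB1 were -0.92 and -0.87, and both calls were lost.

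TGF-beta pathway genes had 11 lower and 1 higher among 22 tested, at a background of 24.3% and 1.73%, with a median of -1.001. The 3 called lower after the correction, at a background of 2.98%, were TGFB2, THBS1 and SMAD7, an inhibitor of the pathway, which had 16.2, 15.6 and 12.2 TPM in NG and 6.1, 4.62 and 10.2 TPM in HG (log2 fold change -1.03, SE 0.27, limma adjusted p = 0.00772). SMAD4, the shared partner of the signalling SMADs, had 16.7, 15.5 and 15.5 TPM in NG and 4.64, 3.14 and 5.62 TPM in HG (log2 fold change -1.65, SE 0.19, limma adjusted p = 0.000292) but a corrected value of -0.66. The single gene called higher was ENG, a co-receptor, with 1.12, 1.25 and 1.5 TPM in NG and 4.81, 6.03 and 1.61 TPM in HG (log2 fold change 1.05, SE 0.31, limma adjusted p = 0.0138) and no call after the correction. Of 14 integrins tested, 8 were lower and 0 higher, and after the correction ITGB1, ITGAV and ITGA7 were lower. Corrected without HG2, integrins had 0 lower and 0 higher.

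Matrix proteins gave 13 lower and 0 higher genes among 35 tested, and 7 lower after the correction, with a median of -0.66. COL4A1, a chain of basement membrane collagen, had 282, 223 and 224 TPM in NG and 90.8, 69.4 and 80.4 TPM in HG (log2 fold change -1.59, SE 0.20, limma adjusted p = 0.000355). NID1, which links laminin to that collagen, had 67.3, 62.5 and 61.8 TPM in NG and 22.3, 15.4 and 28.4 TPM in HG (log2 fold change -1.53, SE 0.29, limma adjusted p = 0.00162). VCAN, a large proteoglycan, had 68.8, 69.9 and 66.8 TPM in NG and 18.1, 9.33 and 21.8 TPM in HG (log2 fold change -2.07, SE 0.42, limma adjusted p = 0.00211). The 3 HG libraries lay together in COL4A1 at a GC content of 55.4%, and the corrected value was -1.50. CCN2, THBS1, THBS2 and COL1A1 were the other 4 called after the correction, and without HG3 the count was 11. The summed level of the fibroblast markers, given above and mostly that of LUM, was lower in all 3 HG libraries too. Its part in the matrix result was not tested.

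Of 21 metalloproteinases and their inhibitors, 7 were lower before and 5 after the correction. ADAM17, which sheds TNF and EGF receptor ligands, had 9.94, 11.3 and 12.3 TPM in NG and 1.04, 0.41 and 1.8 TPM in HG (log2 fold change -2.60, SE 0.22, limma adjusted p = 3.38e-05). ADAM10 had 95.2, 104 and 95.8 TPM in NG and 15.6, 11.02 and 26.97 TPM in HG (log2 fold change -2.48, SE 0.33, limma adjusted p = 0.000426), and MMP14, a membrane-bound collagenase, had 150, 184 and 179 TPM in NG and 63.7, 56.2 and 103 TPM in HG (log2 fold change -1.23, SE 0.23, limma adjusted p = 0.00139). Corrected values were -1.48, -1.35 and -1.32, and ADAM9 and ADAMTS1 were also called. Collagen cross-linking enzymes and hydroxylases had 4 lower among 18 (LOX, PLOD2, P4HA1 and P3H2) and 0 after the correction. Their median turned from -0.21 to 0.27 under median-of-ratios scaling, where that of all genes moved from -0.45 to 0.00.

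Markers of mesenchymal and epithelial state did not move as blocks. The shares called lower were 18.2% of mesenchymal markers, 40% of junction genes and 28.6% of EMT transcription factors. The background was 24.3% lower and 1.73% higher before the correction and 2.98% lower and 3.98% higher after it. Among 11 mesenchymal markers, S100A4 was higher with 6.9, 5.51 and 6.89 TPM in NG and 14.8, 14.1 and 20.1 TPM in HG (log2 fold change 1.21, SE 0.20, limma adjusted p = 0.000841), also after the correction, while CDH2, N-cadherin, and COL1A1 were lower, COL1A1 not without HG3. Of 25 epithelial junction genes, 10 were lower, 3 of them after the correction: the junction scaffold AFDN, the desmosomal cadherin DSG2 and TJP1, the tight junction protein ZO-1. TJP1 had 15.5, 17.1 and 16.1 TPM in NG and 4.67, 2.88 and 5.97 TPM in HG (log2 fold change -1.69, SE 0.24, limma adjusted p = 0.000485). Corrected counts of the junction list were 6 lower and 0 higher without HG3 and 1 lower and 0 higher without HG2. The EMT transcription factors had 2 lower among 7 and 0 after the correction. Of 10 keratins and vimentin 0 were called, with a median of -0.12.

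Several large classes had many genes lower before the correction and few after it. Mitosis and G2/M genes had 23 lower of 62 tested and a median of -0.76. Their median GC content was 42.6%, and after the correction 1 gene, the condensin subunit SMC4, was lower, with a median of -0.22. SMC4 had 97.7, 85.3 and 74.6 TPM in NG and 14.5, 7.04 and 34.95 TPM in HG (log2 fold change -2.39, SE 0.55, limma adjusted p = 0.00397). CENPF, a kinetochore protein, had 94.6, 70.2 and 66.1 TPM in NG and 19.1, 7.93 and 36.8 TPM in HG (log2 fold change -2.02, SE 0.61, limma adjusted p = 0.0148) and was not called after the correction (adjusted p = 0.109 in limma). In both genes HG3 was the highest HG value, and without HG3 the list had 31 lower and 0 higher before and 4 and 0 after the correction.

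Centrosome and cilium genes had 24 lower of 49 and 1 after the correction, CEP170, with medians of -1.04 and -0.22. Chromatin modifiers had 20 lower of 47 and 1 after it, the remodeller CHD2, with medians of -0.96 and -0.36. Ubiquitin ligases and SUMO genes had 18 lower of 37 and 1 after it, NEDD4, with medians of -0.99 and -0.29. Membrane trafficking genes had 21 lower and 1 higher of 47, and SNX2 and SEC24D were lower after it. These corrected counts rose without HG3, where the background was 6.66% lower, to 4 lower and 1 higher for centrosome genes, 7 lower and 1 higher for chromatin modifiers, 2 lower and 1 higher for ubiquitin ligases and 5 lower and 2 higher for trafficking genes. ATRX, a remodeller of heterochromatin with a GC content of 36.8%, had 15.2, 12.5 and 12.5 TPM in NG and 1.77, 1.09 and 5.22 TPM in HG, and its log2 fold change went from -2.12 to -0.96.

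Zinc finger genes with ZNF symbols, the largest family of DNA-binding proteins in the genome, lost most calls in the same way. Of 377 tested, 141 were lower and 2 higher, with a median of -0.85 at a median GC content of 43.1%. After the correction 7 were lower and 6 higher, shares below the background of 2.98% and 3.98%, and the median was -0.12. Without HG3 they had 161 lower and 5 higher before and 13 and 14 after the correction.

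Genes of protein synthesis and respiration behaved in the opposite way. Of 79 cytosolic ribosomal protein genes, 2 were higher and 0 lower before the correction, with a median of 0.33 where that of all genes was -0.45. After the correction 24 were higher and 0 lower, with a median of 0.78. The 2 called at first were RPL13 and RPL36, and RPL13 had 1688, 2382 and 2499 TPM in NG and 4599, 6200.4 and 3947 TPM in HG (log2 fold change 1.16, SE 0.19, limma adjusted p = 0.000915). RPL37A had 4017, 4074 and 4051 TPM in NG and 5951, 6592 and 6078 TPM in HG (log2 fold change 0.62, SE 0.09, limma adjusted p = 0.000562), with a corrected value of 1.30, and RPL9 had a corrected value of 1.60. Reads of these genes can be shared with their many pseudogenes, and their levels are uncertain to that extent.

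Nuclear genes of the respiratory chain had 6 higher and 2 lower among 76, and 24 higher and 0 lower after the correction, with medians of 0.32 and 0.75. UQCRQ, a subunit of complex III, had 162, 178 and 216 TPM in NG and 453, 497 and 322 TPM in HG (log2 fold change 1.18, SE 0.16, limma adjusted p = 0.000477). NDUFA3, of complex I, had 69.99, 113 and 119.8 TPM in NG and 253, 373 and 200.1 TPM in HG (log2 fold change 1.43, SE 0.25, limma adjusted p = 0.00107), and ATP5F1D, of ATP synthase, had 37.3, 52.4 and 50.3 TPM in NG and 112, 167 and 119.8 TPM in HG (log2 fold change 1.49, SE 0.21, limma adjusted p = 0.000465). Every HG library was above every NG library in these 3 genes and in 38 of the 76, at a background of 10.8%. The 2 genes lower before the correction, NDUFS1 and NDUFA5, have low GC contents of 42.1% and 35.04%, and their corrected values were -0.26 and -0.09.

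Mitochondrial ribosomal proteins had 4 higher and 2 lower of 76, and 14 and 0 after the correction. The proteasome had 1 higher and 1 lower of 38, and 7 and 0 after it. MRPL23 had 48.99, 42.1 and 51.8 TPM in NG and 128, 168 and 82.5 TPM in HG (log2 fold change 1.33, SE 0.21, limma adjusted p = 0.000744), and PSMB3, a proteasome core subunit, had 302, 303 and 317 TPM in NG and 582, 670.4 and 445 TPM in HG (log2 fold change 0.86, SE 0.14, limma adjusted p = 0.000936). Against a background of 3.98% higher, the corrected shares were thus above it in all 4 lists, and they moved with the libraries. Without HG3, where 7.02% of all genes were higher, the corrected counts of higher genes were 30, 33, 28 and 10 for cytosolic ribosomal, respiratory chain, mitochondrial ribosomal and proteasome genes. Without HG2, where 2.36% were higher, they were 13, 17, 8 and 2. The medians of these 4 lists stayed above that of all genes under each scaling tried. They were 0.88, 0.87, 0.80 and 0.66 under median-of-ratios scaling, in the order named. Under quantile normalization they were smaller, at 0.20, 0.55, 0.59 and 0.27, against 0.02 over all genes. They were lower in HG3 than in HG1 and HG2, with corrected medians of 0.83, 0.997 and 0.52 for the respiratory chain.

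These lists hold short transcripts, and length moved with the result. The median length was 1857 bases for cytosolic ribosomal proteins and 1432 for the respiratory chain, against 3383 over all genes. With the values corrected, genes of the decile with the shortest transcripts had a median log2 fold change of 0.47 and those of the decile with the longest -0.24. With length added to the correction, the medians were 0.57 and 0.56, and 17 and 15 genes were higher. The part of transcript length in the result was not tested further.

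**Figure D3:**
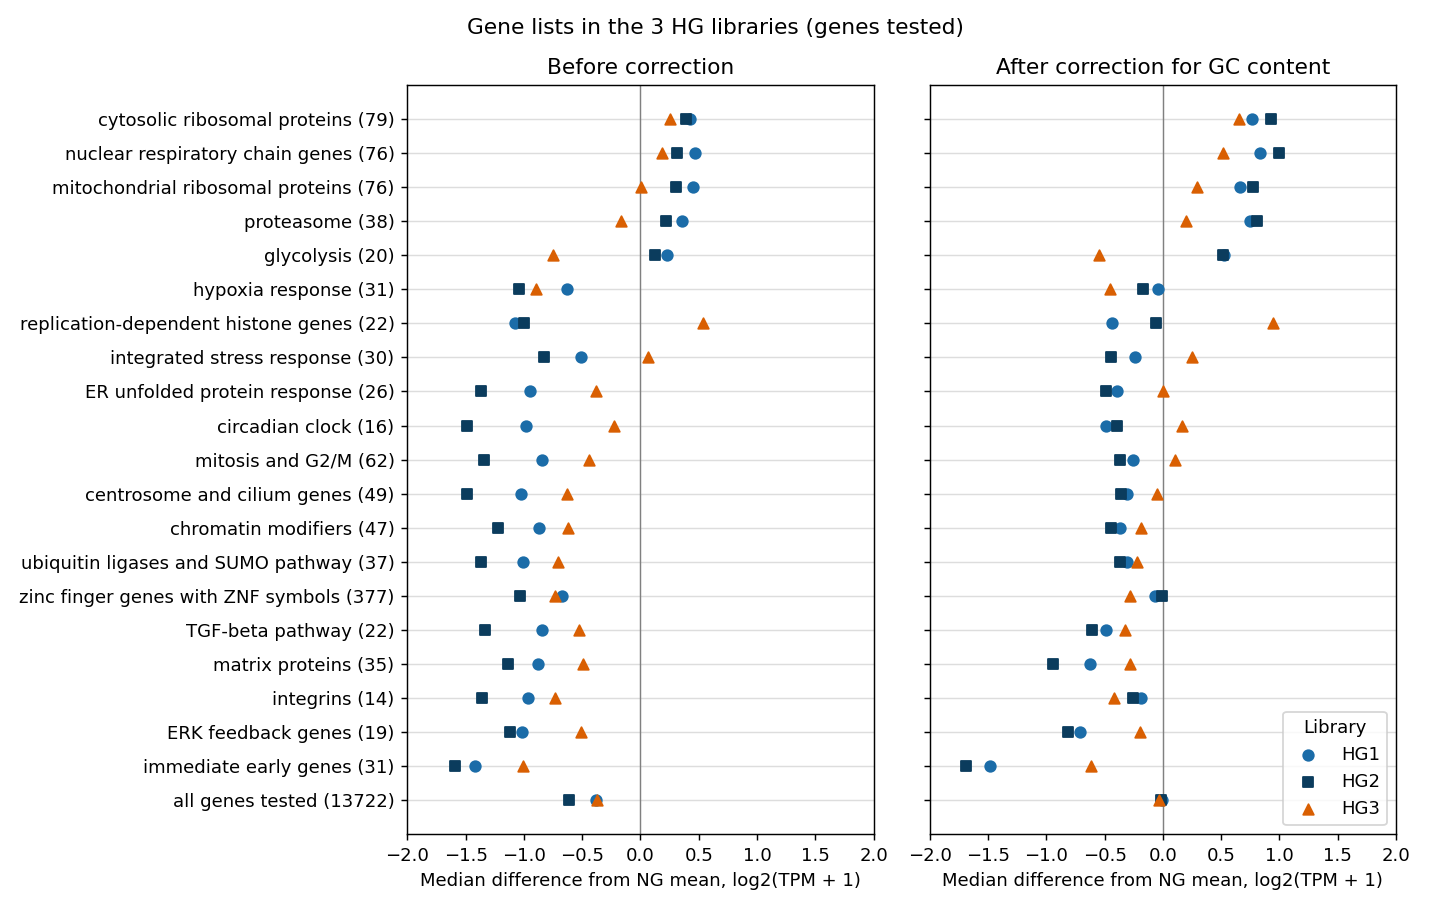
Median difference of each HG library from the NG mean, in log2(TPM + 1), for 20 gene lists or classes and for all genes tested, before (left) and after (right) the correction for GC content. Numbers of tested genes stand in brackets. In HG1 and HG2 of the right panel, immediate early genes lie lowest at -1.48 and -1.69 and respiratory chain genes highest, mitosis, centrosome and zinc finger genes move toward 0, and HG3 stands apart from HG1 and HG2 in glycolysis and histone genes.

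Genes of glucose handling did not rise together. TXNIP, a glucose-induced inhibitor of glucose uptake, had 1833, 1832 and 1732 TPM in NG and 483, 334 and 976 TPM in HG (log2 fold change -1.73, SE 0.33, limma adjusted p = 0.00161), and its paralog ARRDC4 had 20.6, 18.03 and 16.5 TPM in NG and 4.55, 2.16 and 8.98 TPM in HG (log2 fold change -1.79, SE 0.32, limma adjusted p = 0.00128). Both were at -0.98 and -0.99 after the correction and just missed the fold criterion. SLC2A1, the basal glucose transporter, had 261, 283 and 285 TPM in NG and 214, 179.9 and 121 TPM in HG (log2 fold change -0.72, SE 0.19, limma adjusted p = 0.00721), and SLC2A3 had 125, 112 and 107 TPM in NG and 45.5, 39.1 and 52.4 TPM in HG (log2 fold change -1.32, SE 0.17, limma adjusted p = 0.00038). SLC2A6, a lysosomal hexose transporter and the 1 member called higher of 13, had 3.66, 4.73 and 5.1 TPM in NG and 15.9, 19.9 and 5.49 TPM in HG (log2 fold change 1.27, SE 0.35, limma adjusted p = 0.00883), with HG3 near the NG values. After the correction 0 genes of the list were called with all libraries. Corrected without HG3, TXNIP and ARRDC4 were lower and SLC2A6 higher, at a background of 6.66% lower and 7.02% higher.

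In the polyol and osmolyte list, 8 were lower and 1 higher of 18, and 0 were called after the correction. Corrected without HG3, 2 were lower and 0 higher. AKR1B1, aldose reductase, the entry enzyme of the polyol pathway, had 789, 758 and 770.1 TPM in NG and 1156, 1189 and 1144 TPM in HG (log2 fold change 0.59, SE 0.27, limma adjusted p = 0.0877). All 3 HG values were above all NG values and close together. AKR1B1 still missed the criteria, with a corrected value of 0.77 (limma adjusted p = 0.0306). Its SE and p-values come from the fit over all 4 groups and do not measure the spread of these 6 values alone. SORD, which turns sorbitol into fructose, had 15.9, 16.2 and 13.2 TPM in NG and 9.47, 6.39 and 8.12 TPM in HG and was not called. SLC5A3, the osmolyte transporter for myo-inositol, had 14.6, 15.8 and 15.3 TPM in NG and 3.09, 1.77 and 5.88 TPM in HG (log2 fold change -1.93, SE 0.31, limma adjusted p = 0.000786), and NFAT5, the transcription factor of the osmotic response, had 5.49, 6.06 and 5.42 TPM in NG and 0.32, 0.08 and 2.28 TPM in HG (log2 fold change -1.99, SE 0.33, limma adjusted p = 0.00093). Their corrected values were -0.80 and -0.95. PNPLA6, which forms the osmolyte glycerophosphocholine, was the gene called higher, with 35.2, 47.7 and 43.96 TPM in NG and 89.5, 126 and 96.8 TPM in HG (log2 fold change 1.27, SE 0.17, limma adjusted p = 0.000426).

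Glycolysis split the HG group. The list had 3 lower and 0 higher of 20, but its median was 0.23 in HG1 and 0.12 in HG2 against -0.75 in HG3, and after the correction 0.53, 0.52 and -0.54. In 10 of the 20 genes, HG1 and HG2 were above all NG libraries and HG3 was below all of them, which was so for 6.24% of all genes. ENO1, enolase, had 2172, 2105 and 2121 TPM in NG, 3387 and 3665 TPM in HG1 and HG2 and 1089 TPM in HG3. GAPDH, the most abundant of them, had 8761, 10768 and 10683 TPM in NG and 16349, 18871 and 8588 TPM in HG, with the lowest of the 6 values in HG3. ALDOA, aldolase A, was not among the 10, since its 1006 TPM in HG3 lay within the 943, 1156 and 1157 TPM of NG, against 2028 and 2631 TPM in HG1 and HG2.

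Without HG3, the log2 fold changes of ALDOA, ENO1, GAPDH, TPI1 and PKM were 1.10, 0.72, 0.81, 0.81 and 0.75, where those of all 3 libraries were 0.70, 0.16, 0.46, 0.44 and 0.45. ALDOA was the 1 of these that passed the fold criterion without HG3. The 3 genes lower with all libraries were the hexokinase gene HK2, PFKM and PFKFB2. HK2 had 13.9, 14.8 and 14.3 TPM in NG and 6.37, 3.97 and 3.23 TPM in HG (log2 fold change -1.51, SE 0.22, limma adjusted p = 0.000506) and was lower in all 3 HG libraries, also after the correction.

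HG3 was the HG library nearest to NG in 60.3% of all genes tested, in 84.1% of the genes called lower and in 78.9% of those called higher. In 468 genes (3.41%) HG3 was above all NG libraries while HG1 and HG2 were below all of them, and in 856 genes (6.24%) the reverse held. These counts describe single libraries and carry no test. The genes named for HG3 were chosen after their values had been seen.

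Several ER stress genes were split with HG3 highest. DDIT3, the CHOP transcription factor of ER stress, had 595, 480.1 and 485 TPM in NG, 129 TPM in HG1, 110.2 TPM in HG2 and 1493 TPM in HG3. HSPA5, the ER chaperone BiP, had 2973, 2461 and 2499.9 TPM in NG, 488 and 366 TPM in HG1 and HG2 and 3088 TPM in HG3. HERPUD1, of ER-associated degradation, had 177, 165 and 167 TPM in NG and 35.9, 29.4 and 243 TPM in HG. HG3 thus exceeded NG where HG1 and HG2 lay several times below it, and none of the 3 genes was called with all libraries. Without HG3 all 3 were lower, at -2.11, -2.64 and -2.35, and after the correction at -1.72, -1.99 and -1.85.

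The promoter of HSPA5 is given because it carries the ER stress element, CCAAT and CCACG spaced by 9 bases, which was searched on both strands of the 250 bases before the start. The sequence is from RefSeq, GRCh38.p14, chr9:125241344-125241593, minus strand, with the element in capitals.
HSPA5: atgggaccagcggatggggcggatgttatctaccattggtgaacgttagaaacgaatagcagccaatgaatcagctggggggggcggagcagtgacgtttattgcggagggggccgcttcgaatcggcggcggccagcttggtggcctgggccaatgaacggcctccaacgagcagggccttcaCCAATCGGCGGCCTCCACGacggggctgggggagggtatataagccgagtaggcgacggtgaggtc
The element was found in 0.0859% of 22114 promoters and in 0.166% of those of the genes tested. It was found in 4 of the 20 unfolded protein response genes with a single promoter, namely HSPA5, CALR, CRELD2 and HSP90B1. These 4 did not share 1 pattern, since HSP90B1 had 3595, 2539.9 and 2370.4 TPM in NG and 770.4, 454 and 1501 TPM in HG, with HG3 above HG1 and HG2 and below NG, and CALR had 2959, 2762 and 2802 TPM in NG and 2024, 2242 and 3017 TPM in HG. No match in this window says only that these letters are not there.

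The integrated stress response list had 5 lower of 30 with all libraries and 11 without HG3. In 8 of its 30 genes HG3 was above NG with HG1 and HG2 below it, among them DDIT3, PPP1R15A, ATF4, ASNS, PSAT1 and CEBPB, at a background of 3.41%, against which the counts of the following lists stand too. PPP1R15A, which ends the translational block of that response, had 248, 257 and 249.7 TPM in NG and 66.1, 59.7 and 311 TPM in HG. ASNS, asparagine synthetase, had 60.7, 43.1 and 43.5 TPM in NG and 36.1, 29.3 and 65.9 TPM in HG, a smaller split. After the correction the integrated stress response list had 3 lower with all libraries and 8 lower and 0 higher without HG3. The unfolded protein response list had 5 of 26 such genes and 11 lower with all libraries, and after the correction 0 were called with all libraries and 5 were lower without HG3. Of 31 heat shock chaperones, HSPA1A, HSPA1B and DNAJB1 were split in this way, and DNAJB1 had 173, 173 and 166 TPM in NG and 57.7, 57.8 and 353 TPM in HG. HSPA1A and HSPA1B are near-identical copies, so that their single levels are uncertain.

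Histone and clock genes stood out in HG3 as well. Replication-dependent histone genes, whose mRNAs mostly lack a poly(A) tail, had medians of -1.08 in HG1, -0.996 in HG2 and 0.54 in HG3 over 22 tested of 63, and 8 of 22 were split with HG3 above NG. H2BC21 had 20.3, 23.4 and 20.4 TPM in NG and 1.23, 0.79 and 39 TPM in HG, and H2BC4 had 25.1, 21.3 and 22.04 TPM in NG and 4.45, 1.71 and 33.8 TPM in HG. Small nucleolar RNAs had medians of -0.69, -0.73 and 0.59 over 14 genes, of which 2 were split with HG3 above NG. Their sum was 75.5 to 298 TPM in NG and 108 TPM in HG3, so that the sum of HG3 lay within NG. Of 16 clock genes, PER1, PER3, NR1D1 and CIART were split in the same direction, and NR1D1, the repressor REV-ERB alpha, had 20.2, 26.1 and 26.3 TPM in NG and 11.3, 12.3 and 48.2 TPM in HG. BMAL1, the activator of the clock, had 10.1, 9.75 and 8.53 TPM in NG and 3.03, 2.52 and 3.47 TPM in HG (log2 fold change -1.39, SE 0.20, limma adjusted p = 0.000562), lower in all 3 HG libraries.

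In the opposite direction, HG3 was below NG with HG1 and HG2 above it in 4 of the 31 hypoxia response genes, at a background of 6.24%. PFKFB4, a regulator of glycolytic flux, had 13.9, 15.6 and 15.2 TPM in NG and 24.1, 23.5 and 3.21 TPM in HG, and ANKRD37 had 8.43, 7.16 and 7.61 TPM in NG and 18.6, 10.3 and 2.62 TPM in HG. CA9, the carbonic anhydrase used as a hypoxia marker, had 39, 40.8 and 42.9 TPM in NG and 99.7, 128 and 38.8 TPM in HG, so that HG1 and HG2 were above NG and HG3 was just below its lowest value. HILPDA, a lipid droplet protein induced in hypoxia, had 52.6, 50.3 and 51.3 TPM in NG and 98.05, 75.01 and 10.9 TPM in HG, and NNMT, a methyltransferase for nicotinamide, had 193, 181 and 197 TPM in NG and 652, 738 and 132 TPM in HG. None of these 5 genes was called with all 3 libraries.

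The hypoxia list as a whole had 13 lower and 0 higher of 31 genes, and 5 lower and 1 higher after the correction. Lower after it were HIF1A, NDRG1, VEGFA, CA12 and STC2, and higher was EGLN2, a prolyl hydroxylase that marks HIF1A for degradation. VEGFA had 129.7, 119.9 and 113 TPM in NG and 42.6, 29.6 and 52.4 TPM in HG (log2 fold change -1.55, SE 0.21, limma adjusted p = 0.000431), and EGLN2 had 27.6, 35.3 and 33.9 TPM in NG and 64.1, 83.7 and 48.4 TPM in HG (log2 fold change 0.97, SE 0.19, limma adjusted p = 0.00192), which reached the fold criterion with the correction alone (1.04). NDRG1 had 422, 424 and 425 TPM in NG and 226, 152 and 63.9 TPM in HG (log2 fold change -1.70, SE 0.33, limma adjusted p = 0.00172), with the lowest value in HG3.

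**Figure D4:**
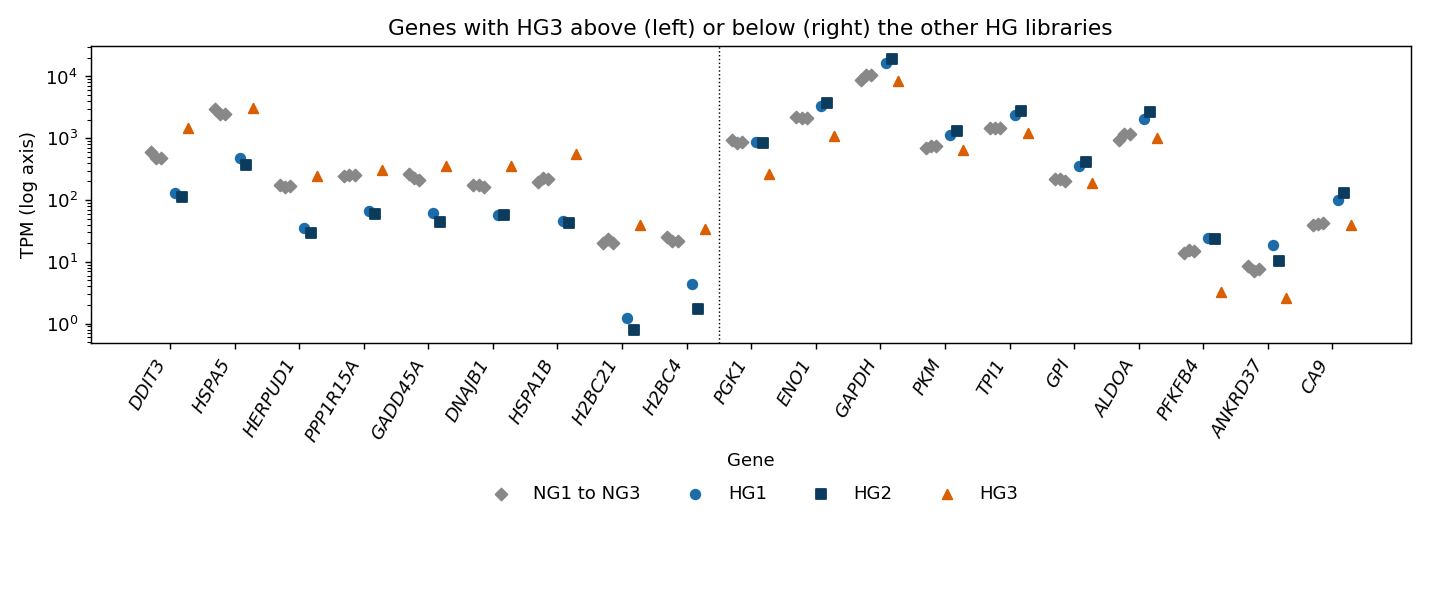
TPM (log axis) in each library of 9 genes in which HG3 stood above HG1 and HG2 (left of the dotted line) and 10 in which it stood below them (right). Grey diamonds are the NG libraries, and circles, squares and triangles are HG1, HG2 and HG3. DDIT3 in HG3 was at 1493 TPM against 129 and 110.2 TPM in HG1 and HG2, and ENO1 in HG3 at 1089 TPM against 3387 and 3665 TPM.

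Lists of inflammation and lipid synthesis had shares of lower genes of 30.3% to 33.3%, where the background was 24.3%. NF-kB targets and cytokines had 9 lower and 0 higher of 27, and NFKBIZ, CXCL2, LIF and TNFAIP3 were lower after the correction. NFKBIZ, a nuclear regulator of NF-kB, had 163, 148 and 139 TPM in NG and 25.8, 14.6 and 32.9 TPM in HG (log2 fold change -2.64, SE 0.33, limma adjusted p = 0.000355) and a corrected value of -2.07. CXCL8, a neutrophil chemokine with a GC content of 33.4%, had 704, 671 and 647 TPM in NG and 226, 132 and 311 TPM in HG (log2 fold change -1.68, SE 0.30, limma adjusted p = 0.0012), and its corrected value was -0.55. The interferon list had 10 lower and 1 higher of 33, and after the correction ISG15 and ISG20 were higher and DDX60 lower, with a median of 0.02. Cholesterol and fatty acid synthesis had 11 lower and 1 higher of 34, and STARD4 and HMGCS1 stayed lower and PMVK higher. HMGCS1 had 39.6, 39.5 and 38.96 TPM in NG and 6.78, 4.02 and 22.2 TPM in HG (log2 fold change -2.06, SE 0.45, limma adjusted p = 0.0031), while PMVK, an enzyme of the same pathway, had 5.77, 5.72 and 6.36 TPM in NG and 18.9, 21.3 and 7.58 TPM in HG (log2 fold change 1.17, SE 0.30, limma adjusted p = 0.00657).

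Of the receptors and ligands of the EGF and FGF families, the class to which FGF9 belongs, 10 were lower and 0 higher of 24, and the EGF receptor ligand EREG was the 1 lower after the correction. FGF2, the broadly acting fibroblast growth factor, had 51.5, 52.95 and 46.6 TPM in NG and 10.3, 6.06 and 30.8 TPM in HG (log2 fold change -1.91, SE 0.40, limma adjusted p = 0.00252) and a corrected value of -0.76. EGFR had 38.9, 32.8 and 31.8 TPM in NG and 11.9, 8.22 and 18.6 TPM in HG (log2 fold change -1.41, SE 0.26, limma adjusted p = 0.00135) and a corrected value of -0.93. Insulin and IGF genes had 8 lower and 0 higher of 24, and PIK3R1, the regulatory subunit of PI3 kinase, and FOXO3 were lower after the correction. The 2 lists had shares of 41.7% and 33.3% lower before the correction, at a background of 24.3%, and corrected counts of 4 lower and 0 higher and of 5 lower and 0 higher without HG3. PIK3R1 had 25.6, 19.2 and 19.1 TPM in NG and 4.17, 1.83 and 4.99 TPM in HG (log2 fold change -2.32, SE 0.34, limma adjusted p = 0.000605).

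Among tubular injury genes, 6 were lower and 0 higher of 18. HAVCR1, the kidney injury molecule KIM-1, had 76.5, 88.4 and 81.2 TPM in NG and 17.3, 9.68 and 18.7 TPM in HG (log2 fold change -2.40, SE 0.32, limma adjusted p = 0.000426) and was lower after the correction too, at -1.88, and CST3, cystatin C, was higher after it, at 1.48. Proximal tubule genes had 4 lower and 0 higher of 11 and 0 called after the correction, or 2 lower and 0 higher without HG3. NRF2 targets had 7 lower and 0 higher of 29, a share of 24.1% and thus that of the background, and NFE2L2, the gene of NRF2 itself, and TXNRD1, a thioredoxin reductase, were lower after the correction. NFE2L2 had 77.5, 59.2 and 54.6 TPM in NG and 16.3, 8.49 and 30.6 TPM in HG (log2 fold change -1.89, SE 0.37, limma adjusted p = 0.00174), without overlap between the groups. Of 7 metallothioneins 0 were called.

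In the actin cytoskeleton list, 6 were lower and 1 higher of 36, and MYL9 and ARPC3 were higher and CAPZA2 lower after the correction. Corrected without HG3, 5 were higher and 2 lower. MYL9, the light chain of contractile myosin, had 146, 146 and 152 TPM in NG and 415, 550.4 and 189 TPM in HG (log2 fold change 1.24, SE 0.29, limma adjusted p = 0.00391). DNA replication genes had 4 lower and 3 higher of 54, and after the correction MCM5 and GINS2, of the replicative helicase, were higher and RFC1 lower. MCM5 had 12.6, 12.8 and 13.6 TPM in NG and 32.6, 35.96 and 17.7 TPM in HG (log2 fold change 1.03, SE 0.25, limma adjusted p = 0.00457). Splicing factors had 10 lower and 0 higher of 52, and after the correction SNRPD1, SNRPF and SNRPG, all core proteins of small nuclear ribonucleoproteins, were higher and SRSF11 was lower. Translation factors had 10 lower and 1 higher of 38. The shares of lower genes, 16.7% for actin, 7.41% for replication, 19.2% for splicing and 26.3% for translation, were near or below the background of 24.3%. Of the translation factors, after the correction EIF3C, EIF3F and EIF4A3 were higher and EIF4B lower.

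The remaining lists kept few calls, and their shares before the correction were 16.7% to 43.8% lower. Targets of p53 and apoptosis genes had 12 lower and 0 higher of 36, and after the correction 1 was lower, GDF15, a secreted stress factor with 87.05, 113 and 114 TPM in NG and 26.1, 26.2 and 113 TPM in HG and a corrected value of -1.52, for which HG3 lay within the NG range. Without HG3 this list had 18 lower and 0 higher before and 7 and 0 after the correction. Lysosome and autophagy genes had 9 lower and 0 higher of 50, and PSAP, the precursor of the saposins, and NPC1, the lysosomal cholesterol exporter, were lower after the correction. Corrected without HG3, 4 were lower and 1 higher. Amino acid metabolism genes had 6 lower and 0 higher of 16. Heat shock chaperones had 6 lower and 0 higher of 31, and after the correction HSPA4 was higher and DNAJB4 and DNAJB6 were lower. Clock genes had 7 lower of 16 and small RNA silencing genes 2 of 12, and 0 of both were called after the correction, or 4 lower and 0 higher clock genes without HG3.

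Among gene types, protein-coding genes had 3123 lower and 178 higher of 11796, and after the correction 344 lower and 340 higher. Before the correction noncoding types had more lower than higher genes, as did all genes. Antisense RNAs had 39 lower and 20 higher of 519, lincRNAs 38 and 5 of 391 and processed pseudogenes 29 and 9 of 226. The shares lower, 7.51%, 9.72% and 12.8%, were below the background of 24.3%. Those higher were 3.85%, 1.28% and 3.98%, at a background of 1.73%. After the correction these types had more higher genes, at a background of 3.98% higher and 2.98% lower. There were 70 higher and 13 lower antisense RNAs, 40 and 7 lincRNAs and 33 and 16 processed pseudogenes, with medians of 0.31, 0.27 and 0.33. These types also have short transcripts, at median lengths of 923, 1407 and 565 bases, and with length in the correction the medians were 0.02, 0.02 and -0.07. The counts were then 22 lower and 28 higher for antisense RNAs, 13 lower and 20 higher for lincRNAs and 26 lower and 9 higher for processed pseudogenes, so that the balance of the last turned. Sense intronic RNAs had 4 higher and 11 lower of 80, and 0 of 12 small nuclear RNAs were called. Of 83 ribosomal protein pseudogenes, 17 were higher and 1 lower after the correction, but 3 lower and 3 higher with length in it. Whether libraries were counted by strand was not given in the sources used here, so that antisense and intronic RNAs cannot be told apart from their host or partner genes with certainty.

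Transcripts of the mitochondrial genome held 11.3% to 15.6% of all TPM in HG and 13.5% to 14.4% in NG. Over its 13 protein-coding genes the median log2 fold change was -0.05, and MT-CO2 and MT-ATP6 were called higher after the correction. The 1 gene called without it was MT-ND4L, a subunit of complex I, with 9343, 14439 and 15400 TPM in NG and 1608, 1435 and 12773 TPM in HG (log2 fold change -2.05, SE 0.62, limma adjusted p = 0.0149), low in HG1 and HG2 and within the NG range in HG3. MT-ND4L overlaps MT-ND4 on the same transcript, and its level is uncertain for that reason.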

How the data were processed

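Gene-level TPM values were used as the authors deposited them, for 12 libraries in 4 groups of 3. The submitters' processing notes name Bowtie 0.12.2 and the mouse build mm8 without a role, although the identifiers are human Ensembl genes. Aligner settings, annotation and strand were not given in the sources used here. TPM keep no depth, so no interval for counting error is given.

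Values were tested as log2(TPM + 1) in limma 3.58.1 (R 4.3.3) with a variance trend, 1 fit over the 4 groups and the contrast HG minus NG, on genes with at least 1 TPM in at least 3 of the 6 libraries. A call needed a log2 fold change of at least 1 and an unadjusted p under 0.01, the study's criteria, and Benjamini-Hochberg adjusted p over all genes are given beside it. An exact permutation test of 3 against 3 libraries cannot go below p = 0.1 and was not used. The pseudocount understates changes of low genes.

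GC content and length were those of the longest transcript in GENCODE 29 (GRCh38), matched by identifier for 97.4% of genes. A natural spline of GC content with 5 degrees of freedom was subtracted from each library's deviations, which also removes a shift of the whole library. The fits were tested on simulated data. Promoters came from RefSeq, GRCh38.p14, matched by symbol.

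The comparison and the gene lists (53, of which 6 hold cell type markers) were chosen with earlier results of these data known. Lists are described by counts and medians. Named genes were the 10 protein-coding genes furthest from 0 in each direction by log2 fold change. They came from calls with a mean of at least 10 TPM in the higher group and no overlap between groups. The same rule after the correction gave 5 in each direction, among genes called in both fits in the same direction. Also named were the most abundant and most changed members of each list, all members of counts of 5 or fewer and the genes the study followed. Other genes, among them those named for HG3, were chosen after their values were seen. Alternatives were the filter, pseudocount, scaling, threshold, variance trend, libraries in the fit, replicate block and each library left out. Some list members are not reported here.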

Additional observations from a re-analysis of the deposited data

How the results depend on the processing

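The 3577 calls (237 higher, 3340 lower) became 2306 (1177 and 1129) under median-of-ratios scaling and 2314 (1079 and 1235) under quantile normalization, both of which centre the libraries by construction. The correction for GC content gave 931 (532 and 399), with length 737 (398 and 339), and without HG3 1828 (938 and 890). Leaving out 1 library gave 2258 to 4737 calls, 126 to 544 higher and 2132 to 4193 lower. The lowest counts were without HG2 and the highest without HG3. Alternatives chosen after seeing the data left out a library in the corrected values. These gave 875 (491 and 384) without NG1, 856 (496 and 360) without NG2, 936 (539 and 397) without NG3, 836 (490 and 346) without HG1 and 537 (316 and 221) without HG2. With only the 6 HG and NG libraries the corrected count was 870 (501 and 369). The causes were not tested.

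Deviations of libraries with the same replicate number correlated at 0.10, 0.10 and -0.19, and not every library correlated best with its own number. These were uncorrected deviations from means of 3 libraries. They cannot show whether libraries of the same number were prepared together. With the replicate block 3529 genes were called, and with the block and the correction 923 (529 and 394).

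None of the 27 named genes turned its direction under these alternatives, but lists did. Except for the genes the study followed, the named genes were chosen by large differences in these same data. Their stability thus follows in part from the choice. With at least 1 TPM required in all 6 libraries, 20 of these 27 genes were left, so that this filter says nothing of the rest. Median-of-ratios scaling moved the median of all genes from -0.45 to 0.00, and with it the medians of several lists turned. Among these were collagen cross-linking genes, the actin cytoskeleton (-0.08 to 0.47), glycolysis (-0.20 to 0.34) and lysosome genes (-0.37 to 0.16). The balance of higher and lower calls turned as given above. That of processed pseudogenes turned between the corrections for GC content and for GC content with length. Of the 27 genes, the correction for GC content ended the call of 1, LOX, and that for GC content and length of 7. The remaining settings (filter, pseudocount, threshold, variance trend, mitochondrial genes left out, 6 libraries alone) kept each total within 1.5 times. Low genes are limited by unknown depth.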
